A study of Arabidopsis thaliana with 6 samples.

Results

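The genes described here are 9 genes taken as cell cycle, mitosis and DNA replication genes, out of 13356 genes that carry 1 symbol in the probe table. They are the inhibitor gene SIM, the mitosis genes BUB3.1, 3xHMG-box2, AUR1 and AUR2, the replication genes POLD3, PRL and TOPII, and CKS. Members were chosen by gene symbol with their differences between the genotypes already known from these same arrays, and the probe set with the highest mean over the 6 arrays stood for each gene. Each of the 9 genes had 1 probe set among those with 1 gene in the probe table, so the mean decided nothing. Because the differences were known when the genes were chosen, they are given as descriptions and support nothing beyond themselves.

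RNA came from leaves of Arabidopsis thaliana plants, which were 15 days old and grown at 21 °C with 16 h of light and 8 h of dark, without treatment. The chr11-1 chr17-1 double mutant gave 3 arrays and wild type Col-0 gave 3 arrays. CHR11 and CHR17 encode ISWI-type ATPases, which slide and space nucleosomes, and the comparison asks which transcripts differ in level between mutant and wild-type leaves. The labels do not say whether the 3 samples of a genotype came from separate plants, so the spread between them may be technical. The labels name the tissue as leaf and no cell type, so a change in the number of dividing cells and a change in RNA per cell cannot be told apart.

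In a plant cell cycle, cyclin-dependent kinases drive DNA replication and then mitosis. Proteins of the SIAMESE family, to which SIM belongs, bind these kinases and inhibit them. In Arabidopsis SIM is known from trichomes, the leaf hairs, where its loss lets cells that normally only re-replicate their DNA divide instead. Replication needs the MCM helicase, of which PRL (PROLIFERA, MCM7) is a subunit, and DNA polymerases, of which POLD3 is an accessory subunit of polymerase delta. TOPII, topoisomerase II, disentangles the copied DNA. In mitosis the Aurora kinases AUR1 and AUR2 act on the spindle and chromosomes, BUB3.1 belongs to the proteins that monitor spindle attachment, and 3xHMG-box2 is an HMG-box protein that associates with condensed chromosomes. Expanding leaves hold few dividing cells, and transcripts of mitosis and replication genes are usually low in them.

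The gene table used for names does not place CKS in this group. It gives CKS (AT1G53000) the synonym CMP-KDO synthetase, an enzyme that activates the sugar KDO for the cell wall polysaccharide rhamnogalacturonan II, and it lists the cyclin-dependent kinase subunit genes CKS1 and CKS2 at other loci. CKS is therefore a symbol shared with, but not a member of, the cell cycle machinery. Its values are given apart, and 8 cell cycle genes remain.

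Among these 8 genes the inhibitor SIM was higher in mutant leaves and 3 genes of mitosis or replication, BUB3.1, 3xHMG-box2 and POLD3, were lower at the test's threshold, while PRL, TOPII, AUR1 and AUR2 did not pass. Values are log2 expression levels as deposited, on which 1 unit is a 2-fold change, and differences are mutant minus wild type. The test was limma with Benjamini-Hochberg adjustment over 22746 probe sets, with a threshold of adjusted p 0.05. At this threshold 28.6% of all probe sets differed, 14.0% being higher and 14.7% lower in the mutant. With CKS, 1 of the 9 genes was higher and 4 were lower. Since the genes were chosen on this contrast, nothing is read from these counts against those shares.

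**Figure D1:**
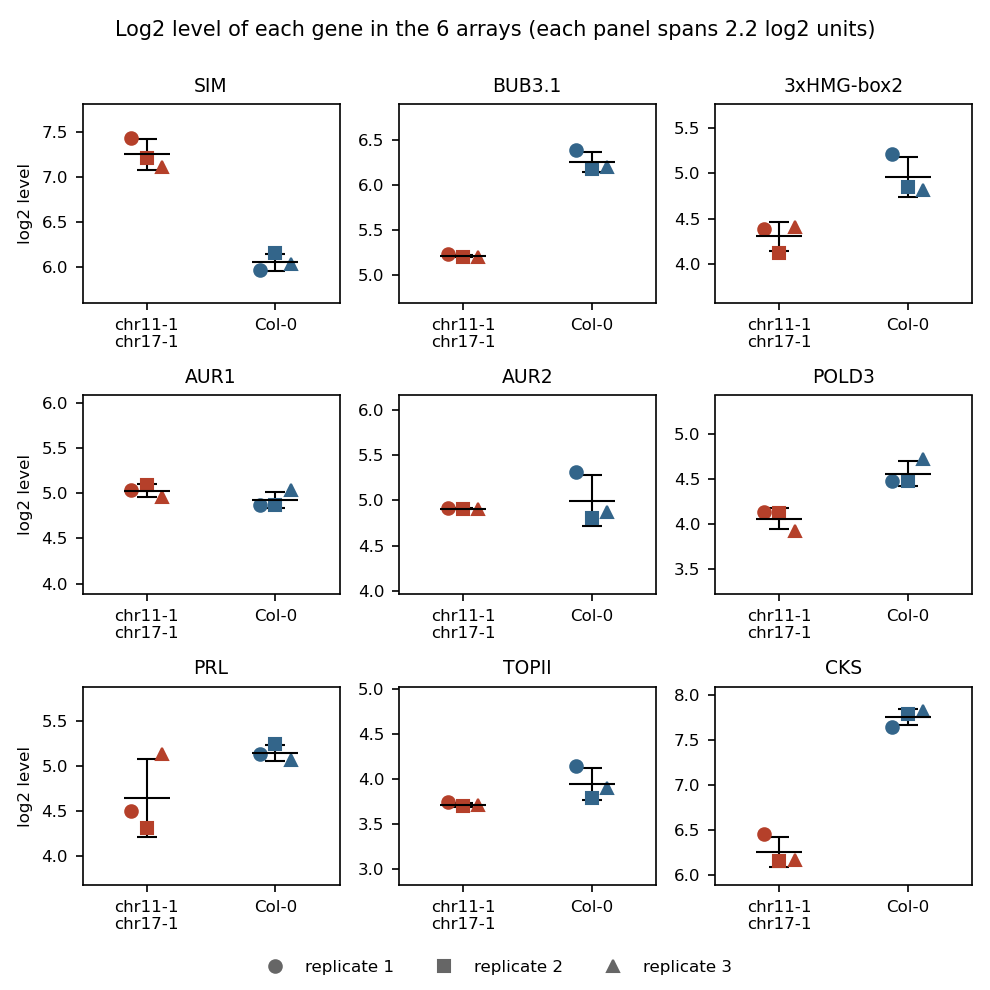
Log2 expression level (vertical axis) of each of the 9 genes in the 3 chr11-1 chr17-1 arrays (left in each panel) and the 3 Col-0 arrays (right), with the mean and SD of each genotype as black bars and the replicate number as the marker shape. The mutant arrays lie above the wild-type arrays for SIM and below them for BUB3.1, 3xHMG-box2, POLD3, TOPII and CKS, and the genotypes overlap for AUR1, AUR2 and PRL.

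SIM (AT5G04470) read 7.43, 7.20 and 7.10 in the mutant arrays, against 5.97, 6.15 and 6.03 in the wild-type arrays. Every mutant array lay above every wild-type array. The means were 7.25 ± 0.17 in mutant leaves and 6.05 ± 0.09 in wild-type leaves (SD, n = 3 each). The difference was 1.19 (SE 0.11, 95% interval 0.96 to 1.43), a 2.29-fold higher signal in the mutant, past the threshold. It lay at percentile 98.2 of the differences of all probe sets.

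The 3 probe sets with 1 gene that followed SIM most closely over the 6 arrays were those of AT1G31300, AT5G03490 and AT5G52540, for which the tables give no further name. Pearson's r with SIM was 0.9996, 0.998 and 0.998 in that order, and their differences were 0.87, 0.58 and 1.41. In all, 1197 of 13512 compared probe sets had an r above 0.9 with SIM, since any gene with a clear rise between the genotypes correlates with any other over 6 arrays in 2 groups. The immediate measured neighbour on the lower-numbered side of SIM, AT5G04460, had a difference of -0.10, and the nearest measured gene on the other side, AT5G04480, also had -0.10. Neither passed the test.

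Since SIM acts in trichomes, a list of 6 trichome markers was examined beside it, of which 1 was measured and named. This was TRY, a small MYB protein that represses trichome formation in neighbouring cells. TRY read 4.997, 5.066 and 5.553 in the mutant arrays, against 6.017, 5.999 and 5.672 in the wild-type arrays. It fell in the mutant, with a difference of -0.69 (SE 0.15, limma adjusted p = 0.00631). The part that trichome number plays in the SIM difference was not tested.

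Of the mitosis genes, BUB3.1 (AT3G19590) showed the widest separation relative to its spread. It read 5.23, 5.21 and 5.20 in the mutant arrays, against 6.38, 6.17 and 6.20 in the wild-type arrays. The 3 mutant arrays were nearly equal, and all lay below the wild-type arrays. The means were 5.21 ± 0.015 in the mutant and 6.25 ± 0.11 in wild type (SD, n = 3 each). The difference was -1.04 (SE 0.09, 95% interval -1.24 to -0.84), a 2.05-fold lower signal, past the threshold.

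The related spindle-checkpoint gene BUB3.2 had a difference of 0.18 (SE 0.10, limma adjusted p = 0.268), and BUBR1, a partner of BUB3 in the checkpoint, had -0.16 (SE 0.08, limma adjusted p = 0.230). Neither passed the test, both had mean levels below the array medians, and whether they differ from BUB3.1 in response was not tested. BUB3.2 read 4.29, 4.26 and 3.96 in the mutant arrays, against 3.996, 3.985 and 3.996 in the wild-type arrays, so the genotypes overlapped.

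3xHMG-box2 (AT4G23800) read 4.389, 4.115 and 4.404 in the mutant arrays, against 5.22, 4.85 and 4.82 in the wild-type arrays. No mutant array reached the lowest wild-type array. The means were 4.30 ± 0.16 in the mutant and 4.96 ± 0.22 in wild type (SD, n = 3 each), and the difference was -0.66 (SE 0.13, 95% interval -0.95 to -0.37), past the threshold. Its paralogue 3xHMG-box1 had a difference of -0.22 (SE 0.11, limma adjusted p = 0.172), which did not pass the test. Its mean level lay at percentile 6.83 of all probe sets, where a low signal limits what can be seen, and the difference between the paralogues was not tested.

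The Aurora kinase genes did not pass. AUR1 (AT4G32830) read 5.04, 5.09 and 4.96 in the mutant arrays, against 4.87, 4.88 and 5.03 in the wild-type arrays. The difference was 0.10 (SE 0.09) and its 95% interval ran from -0.10 to 0.31. AUR2 (AT2G25880) read 4.92, 4.90 and 4.91 in the mutant arrays, against 5.32, 4.81 and 4.87 in the wild-type arrays. Wild-type replicate 1 stood above the other 5 arrays, and the genotypes overlapped for both genes. The AUR2 difference was -0.09 (SE 0.13, 95% interval -0.38 to 0.20), and without wild-type replicate 1 it was 0.07. Both intervals include 0 and leave out changes as large as that of BUB3.1. AUR3, the third Aurora kinase gene, had 0.15 (SE 0.12, limma adjusted p = 0.484).

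**Figure D2:**
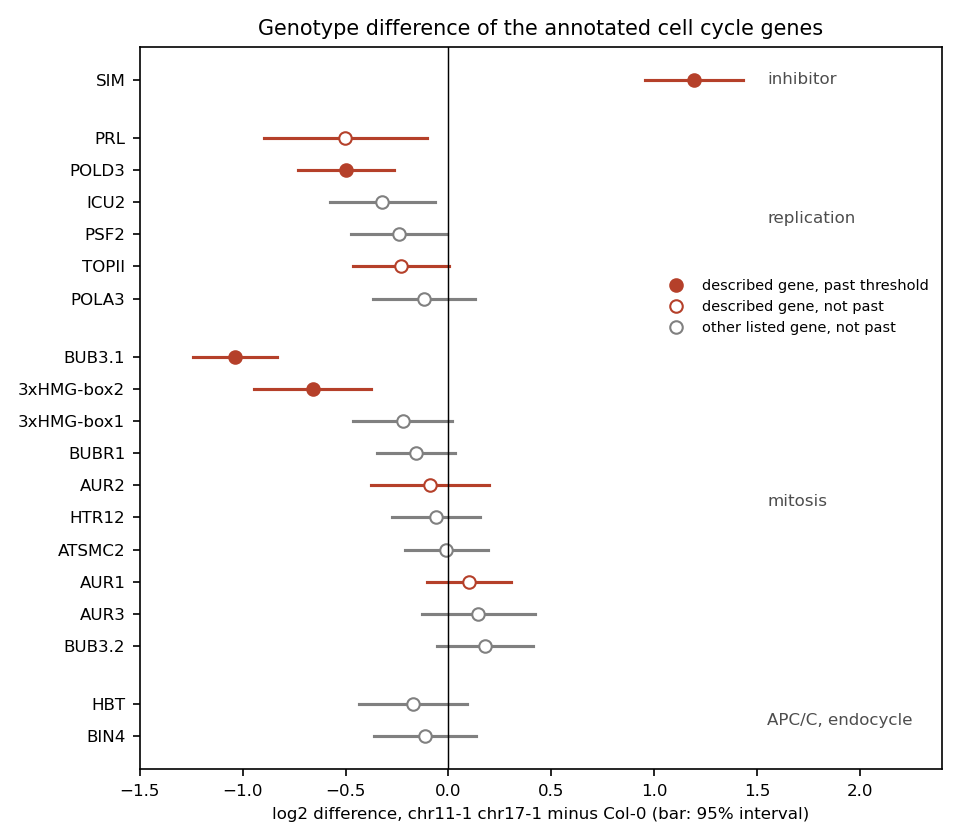
Log2 difference, chr11-1 chr17-1 minus Col-0, with its 95% interval, of the 19 listed cell cycle genes that were measured and carry a gene name, grouped by role. Red marks the 8 genes described here and grey the other listed genes; filled points were past the threshold. Of the genes drawn, SIM lies farthest right at 1.19, and the 6 named replication genes lie between -0.50 and -0.12. Genes without a name are not drawn. Those of the inhibitor list had 1.70 (AT1G10690, above SIM), 0.58, 0.24 and -0.16, and 2 further replication genes had 0.25 and 0.011.

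Of the replication genes, POLD3 (AT1G78650) read 4.14, 4.12 and 3.92 in the mutant arrays, against 4.47, 4.48 and 4.72 in the wild-type arrays. The genotypes did not overlap. The means were 4.06 ± 0.12 in the mutant and 4.56 ± 0.14 in wild type (SD, n = 3 each), a difference of -0.50 (SE 0.11, 95% interval -0.73 to -0.26), past the threshold.

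PRL (AT4G02060) had the same size of difference with more spread. It read 4.50, 4.31 and 5.13 in the mutant arrays, against 5.13, 5.24 and 5.07 in the wild-type arrays. Mutant replicates 1 and 2 lay below all wild-type arrays, and mutant replicate 3 lay among them. The mutant mean was 4.65 ± 0.43 and the wild-type mean 5.15 ± 0.09 (SD, n = 3 each). The difference of -0.50 (SE 0.18, 95% interval -0.90 to -0.10) did not pass (limma adjusted p = 0.0612, with 0.000969 to 0.225 over the other settings). Leaving out mutant replicate 3 gave -0.74, past the threshold with the lower of these adjusted p-values, and leaving out mutant replicate 2 gave -0.33, with the higher.

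TOPII (AT3G23890) read 3.74, 3.70 and 3.71 in the mutant arrays, against 4.14, 3.79 and 3.90 in the wild-type arrays. The mutant arrays all lay below the wild-type arrays, by a margin of less than the wild-type spread. The difference was -0.23 (SE 0.10, 95% interval -0.46 to 0.0041) and did not pass, and without wild-type replicate 1 it was -0.13. Its mean level lay at percentile 18.8 of all probe sets, in the dimmest of 5 equal groups by level, where 0.813% of probe sets passed the test. Both measured genes next to TOPII passed the test in the same direction, AT3G23880 with -2.44 and AT3G23900 with -0.42 (limma adjusted p = 0.00525), with no annotated gene between either of them and TOPII. Over all probe sets 28.6% passed. Of the 18 nearest measured genes on either side of the 9 genes, 4 passed, these 2 among them. The others were AT4G02010 on 1 side of PRL, which was lower by a similar amount to PRL (-0.47, limma adjusted p = 0.00914), and AT3G19550 on 1 side of BUB3.1, which was higher (1.40, limma adjusted p = 1.6e-05). Other annotated genes lie between AT4G02010 and PRL and between AT3G19550 and BUB3.1.

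Taken as a group, the 7 mitosis and replication genes had a median difference of -0.50 and a range from -1.04 to 0.10, with 6 differences below 0 and 1 above. SIM stood at 1.19 in the opposite direction. The median over all probe sets was -0.0028. The other 11 named genes of the cell cycle lists described below had a median of -0.12, with 9 below 0 and 2 above. Of these 0 passed, while 28.6% of all probe sets did, and most of these 11 were dim. SIM and the 7 genes were chosen on this contrast, so nothing is read from their median or from its distance to SIM. The 3 mutant arrays lay wholly on 1 side of the 3 wild-type arrays for 6 of the 9 genes, 1 above and 5 below, and for 39.5% of all probe sets. Wild-type replicate 1 gave the highest of the 3 wild-type values for 4 of the 7 mitosis and replication genes, namely BUB3.1, 3xHMG-box2, AUR2 and TOPII, and for 36.6% of all probe sets. Without that array the differences of BUB3.1 and 3xHMG-box2 were -0.97 and -0.53, and both still passed.

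**Figure D3:**
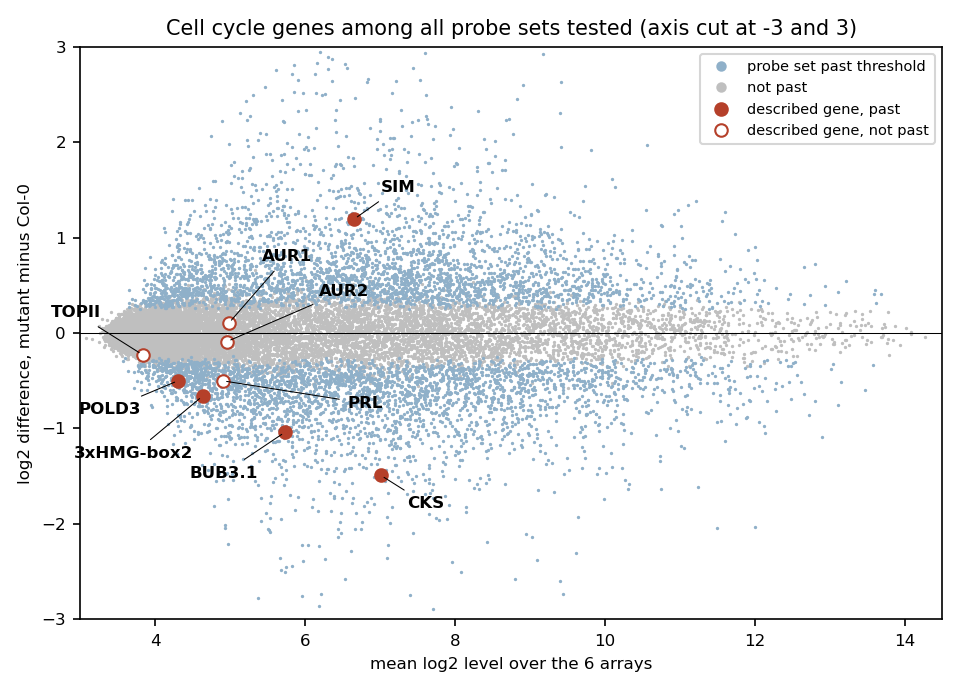
Mean log2 level over the 6 arrays (horizontal axis) against the log2 difference, chr11-1 chr17-1 minus Col-0 (vertical axis), for the 22746 probe sets tested, in blue where past the threshold and in grey where not; the 9 genes are in red, filled where past the threshold. The vertical axis leaves out the most extreme differences. The mitosis and replication genes lie at levels of 3.83 to 5.73, below SIM at 6.65 and CKS at 7.005.

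How often a probe set passed depended on its level. With all probe sets split into 5 equal groups by mean level, SIM, BUB3.1 and CKS lay in the second brightest, where 51.0% passed. POLD3, PRL, 3xHMG-box2, AUR1 and AUR2 lay in the middle group, between levels of 4.28 and 5.55, where 32.3% passed. The array medians ran from 4.73 to 4.77, so most of the mitosis and replication genes were read at about the level of a typical probe set, and background was not measured. Fold values are therefore of array signal and may understate changes in transcript amount.

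CKS, the CMP-KDO synthetase gene, had the largest difference of the 9. It read 6.45, 6.16 and 6.16 in the mutant arrays, against 7.65, 7.79 and 7.81 in the wild-type arrays. The genotypes were more than 1 unit apart, and the means were 6.26 ± 0.17 in the mutant and 7.75 ± 0.09 in wild type (SD, n = 3 each). The difference was -1.49 (SE 0.11, 95% interval -1.73 to -1.25), a 2.81-fold lower signal, past the threshold, at percentile 0.673 of all differences. Its immediate measured neighbours AT1G52990 and AT1G53010 had -0.07 and 0.12 and did not pass.

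Other genes of the pathway were taken from 6 lists of 148 loci that encode cell cycle proteins. Of these, 26 were measured with 1 gene per probe set. None came from the list of cyclin-dependent kinases, cyclins and their CKS subunits or from the list of E2F, RB and MYB3R regulators. Probe sets with a semicolon in their symbol entry had been left out, which removes any single gene whose symbol holds one. The arrays may therefore carry genes of both lists. Of the 26 genes, 3 were higher, 3 were lower and 20 did not pass, while over all probe sets 28.6% passed, 14.0% higher and 14.7% lower. The calls include genes chosen on this contrast, and passing depended on level, so nothing is read from this count. The 3 lower genes were BUB3.1, 3xHMG-box2 and POLD3. Of the 3 higher genes, 1 was SIM and the other 2, AT1G10690 (1.70, SE 0.14, limma adjusted p = 9.24e-06) and AT5G02420 (0.58, SE 0.11, limma adjusted p = 0.00271), have no name beyond the locus code in the tables used.

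AT1G10690 read 6.20, 6.67 and 6.68 in the mutant arrays, against 4.67, 4.89 and 4.91 in the wild-type arrays. All mutant arrays lay at least 1 unit above all wild-type arrays. AT5G02420 read 4.97, 4.97 and 5.28 in the mutant arrays, against 4.56, 4.55 and 4.35 in the wild-type arrays, again without overlap. Both genes come from the list of cyclin-dependent kinase inhibitors. Of all 7 listed loci with no name in the tables, 2 were higher, 0 were lower and 5 did not pass. Over all probe sets 28.6% passed in either direction and 14.0% were higher. In this inhibitor list, in which the tables name SIM alone, 5 of 17 loci were measured. Of these 3, SIM among them, were higher, 0 were lower and 2 did not pass, with a median of 0.58. Over all probe sets 14.0% were higher. Since SIM was chosen on this contrast and the list was made with earlier results known, nothing is read from this count.

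Among all 22746 probe sets, 28.6% passed limma and 8245 had an unadjusted p below 0.05. Most of the other 11 named genes of these lists lay in the 2 dimmest of the 5 level groups, where 0.813% and 6.99% passed. Of these 11 genes, 0 passed limma in either direction, and 2 had an unadjusted p below 0.05. These 2 were ICU2, the catalytic subunit of DNA polymerase alpha, with -0.32 (SE 0.11, limma adjusted p = 0.0605, with 0.0269 to 0.217 over the other settings), and PSF2, a subunit of the GINS complex of the replication helicase, with -0.24 (SE 0.10, limma adjusted p = 0.129). ICU2 read 3.97, 3.77 and 4.10 in the mutant arrays, against 4.12, 4.41 and 4.27 in the wild-type arrays. The genotypes did not overlap, by a narrow margin. ICU2 passed without mutant replicate 3 (-0.40, limma adjusted p = 0.0393) and without wild-type replicate 1 (-0.39, limma adjusted p = 0.0405). POLA3, another gene of the polymerase alpha group, had -0.12 (SE 0.11).

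Of all 22746 probe sets, 28.6% passed and 11518 had a difference below 0. The replication list had 8 measured genes, 6 below 0 and 2 above, with a median of -0.23, of which 1, POLD3, passed. The 6 genes below 0, from -0.50 to -0.12, are those with a name, and the 2 genes above 0 were the unnamed AT5G26680 (0.25, SE 0.14) and AT1G07270 (0.011, SE 0.12), which did not pass. The 10 named mitosis genes had a median of -0.07, 7 below 0 and 3 above, of which 2 passed. BUB3.1, 3xHMG-box2, AUR1, AUR2, POLD3, PRL and TOPII were chosen on this contrast, so nothing is read from these counts. Without them, 6 named mitosis genes had a median of -0.03, 4 below 0 and 2 above, and 0 passed. The 3 named replication genes left had a median of -0.24, all below 0, and 0 passed. HTR12, the centromeric histone H3, had -0.06, and ATSMC2, a condensin subunit gene, had -0.0091 with a sign that changed between the alternatives. HBT, a subunit of the anaphase-promoting complex, had -0.17 and BIN4, a component of the topoisomerase VI complex needed for repeated DNA replication in expanding cells, had -0.11, and neither passed.

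A search of symbols and synonyms for 27 cell cycle words found 10 genes, of which 5 were in the lists above. Of the other 5, KINESIN-13A, known in Arabidopsis for its part in trichome branching and not for the spindle, fell with a difference of -0.39 (SE 0.10, limma adjusted p = 0.0148, with 0.00555 to 0.0628 over the other settings). The call was lost when any of 3 arrays was left out. The difference was then -0.38 without replicate 2 of wild type, -0.37 without replicate 3 of wild type and -0.33 without replicate 2 of the mutant, with limma adjusted p-values of 0.0503, 0.0535 and 0.0628 in that order. The DNA ligase gene ATLIG4, which acts in end joining, had -0.30 (limma adjusted p = 0.104). POLH, TOP3A and KINESIN-12B had differences between -0.08 and 0.07 and did not pass.

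Few markers of the tissues that could change the share of dividing cells could be read by name, and those mostly at low levels. A gene counts here as measured where a probe set has it as its 1 gene, by an entry without a semicolon. The other 9233 probe sets tested have no gene entry, or one with a semicolon, which may be several genes or a single symbol. The arrays may therefore carry genes that are missing from these lists. Of 5 shoot meristem markers 1 was measured, CLV3, a peptide signal of the stem cell zone, with -0.0067 at percentile 7.92 of level. Of 6 markers of the stomatal lineage, whose cells divide late in leaf growth, 3 were measured and 0 passed, and 0 had an unadjusted p below 0.05. SPCH had -0.09, MUTE -0.07 and FMA, the guard cell factor FAMA, -0.06, with FMA at a mean level of 6.26 and the other two below the array medians. LHCB4.2, a light-harvesting protein of leaf mesophyll, read at percentile 99.8 of level, as in leaf tissue, and it was the 1 measured of 3 mesophyll markers. It rose in the mutant by 0.54 (SE 0.09, limma adjusted p = 0.000747). The 2 root hair and 2 anther markers measured had differences between -0.09 and 0.03 and did not pass. The part of tissue makeup in the differences above was not tested.

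Of the series as a whole, CHR17, a mutated gene, read 5.33, 4.91 and 5.11 in the mutant arrays, against 4.57, 4.92 and 4.84 in the wild-type arrays, a difference of 0.34 (SE 0.13, limma adjusted p = 0.0832). It passed without mutant replicate 2 (0.44, limma adjusted p = 0.0406). The labels do not place its probes relative to the mutation, so this value does not check the labels, and CHR11 was not analysed here. Arrays of a genotype correlated with each other at r of at least 0.993 and arrays of different genotypes at r of at most 0.972, over probe sets that are not independent of each other. Of 64 Affymetrix control probe sets 56 read higher in the mutant, with a median difference of 0.22, the sign of the differences of SIM, AUR1, AUR3 and BUB3.2 and opposite to that of BUB3.1, 3xHMG-box2, AUR2, POLD3, PRL and TOPII. The part of this shift in the results was not tested.

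**Figure D4:**
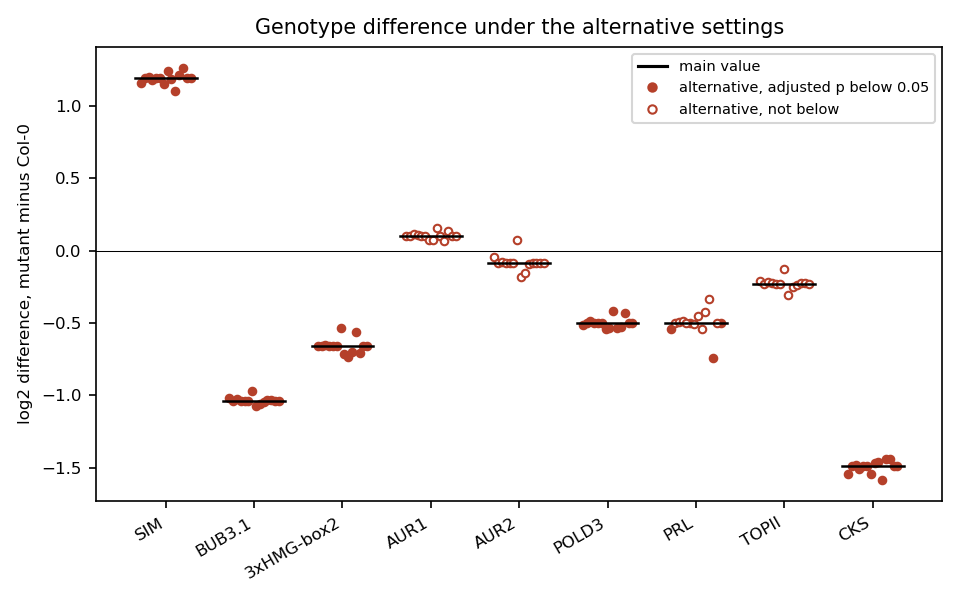
Log2 difference, chr11-1 chr17-1 minus Col-0, of each of the 9 genes as reported (black line) and in each alternative setting (points, filled where the adjusted p was below 0.05). SIM, BUB3.1, 3xHMG-box2, POLD3 and CKS passed in every setting shown, AUR1, AUR2 and TOPII in none, and PRL in 4 of 14.

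Across the 14 other settings of the fit, SIM had differences from 1.100 to 1.27, BUB3.1 from -1.08 to -0.97, 3xHMG-box2 from -0.73 to -0.53, POLD3 from -0.54 to -0.42 and CKS from -1.59 to -1.44. These 5 genes kept their direction and passed in each of them. AUR1 ranged from 0.07 to 0.16 and TOPII, which has 13 settings since it is among the dimmest 30%, from -0.31 to -0.13, and neither passed in any of them.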

How the data were processed

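Leaf RNA was read on 6 single-colour ATH1 arrays. The values are the log2 expression levels that the authors deposited for each probe set. The submitters' processing notes name Partek and RMA and give neither version nor order, and settings for background and normalization are not known here. Nothing was normalized again. The 64 Affymetrix control probe sets were dropped from the 22810, which left 22746 to test. Of these 13513 have 1 gene in the probe table, counted where neither the symbol nor the gene identifier holds a semicolon. Of the 13513, 13436 were found in a gene table (assembly TAIR10.1), which served for names and neighbours only.

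The genotypes were compared using limma (version 3.58.1, under R 4.3.3), with lmFit and eBayes, two-sided, and Benjamini-Hochberg adjustment over every probe set tested. Summaries and plots were made with pandas 2.3.3 and matplotlib 3.10.9 under Python 3.11.15. The limma fit was also run on simulated data with random seed 1, and the outcome of that run is not given here. Intervals are 95% intervals of the fit. They and the p-values reflect the spread among these arrays alone, and 3 arrays a genotype limit their precision.

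The members and lists were chosen with earlier results of these data known. Named are the 9 genes, CHR17, the 3 genes most correlated with SIM, and from each pathway list up to 4 genes past the threshold or, where none passed, the 2 largest differences. Other list genes, genes found by words, neighbours and markers were added after their values were seen. Replicate numbers came from the labels and did not pair the arrays: deviations from the genotype means correlated at -0.30, -0.17 and -0.17 between arrays with the same number. The other settings were quantile normalization, median centring, array weights, a trended robust prior, a replicate block, averaging a gene's probe sets, each array left out in turn, a threshold of 0.01, dropping the dimmest 30% of probe sets, and dropping probe sets marked for cross-hybridisation.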

Additional observations from a re-analysis of the deposited data

How the results depend on the processing

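Of 125 values for the 9 genes under other settings, 120 stayed in direction and on their side of the threshold, 4 newly passed (all PRL) and 1 changed sign (AUR2, 0.070 without wild-type replicate 1, with a range of -0.19 to 0.070 when each array was left out). PRL passed with array weights (-0.54, limma adjusted p = 0.0355), with a trended robust prior (limma adjusted p = 0.0374), without dim probe sets (limma adjusted p = 0.0399) and without mutant replicate 3. Some settings could not change the direction of the 9 genes. Averaging probe sets, the replicate block and the trended robust prior left each difference as it was and moved only its adjusted p. So did dropping dim or cross-hybridising probe sets, where the gene was kept. The counts of the 9 genes past the threshold stayed within 1.5 times their value. Of the 26 listed genes, 5 were lower instead of 3 with array weights and with a trended robust prior, and 3 to 5 when each array was left out. Of the 10 genes found by words, 0 were lower at the threshold of 0.01, and 0 to 1 when each array was left out. With the replicate block, 3 listed genes were higher and 3 lower, and it changed no call among the 9 genes. Signs also changed for genes with differences near 0. Leaving out each array gave -0.13 to 0.0049 for HTR12, -0.064 to 0.024 for ATSMC2 (0.00096 with median centring), -0.12 to 0.11 for AT1G07270 (-0.018 with array weights) and -0.058 to 0.12 for KINESIN-12B. The cause was not tested. Signal over background was not analysed here, and low signal limits what can be said of TOPII and other dim genes.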
